A study of Mus musculus with 24 samples.

Results

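Tumor LAG3_SP and TDT_SP CD8 T cells were compared by their open chromatin, which bulk Omni-ATAC-seq maps by letting the Tn5 transposase insert adapters where DNA is accessible. All libraries with these sort names from tumors were taken, 3 of LAG3_SP and 3 of TDT_SP, which makes 6 of the 24 libraries of the series. The mice carried the Lag3-iCreERT2 and Rosa26-LSL-tdTomato alleles on a C57BL/6 background and bore B16-F10 melanoma, a mouse tumor cell line. Tamoxifen (2 mg) was given on days 8 to 10 after implantation, and tumors were taken on day 19. Cre is driven from Lag3 here, so tdTomato marks cells, and the descendants of cells, that used Lag3 while tamoxifen was present. The labels describe the LAG3_SP cells as LAG3- tdTomato+ and the TDT_SP cells as tdTomato+ with no LAG3 state, whereas LAG3_SP read as a name would mean the opposite, so the library names are kept and no LAG3 state is assumed. The tumor sorts DN and DP served as reference and share the genotype and treatment (LAG3- tdTomato- and LAG3+ tdTomato+), with 3 libraries each that had long peak lists. Every library carries the same batch label, and separate animals are not stated for the replicates, so p-values measure only the spread between these libraries.

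LAG3 is an inhibitory receptor that activated and exhausted T cells display. Exhausted CD8 T cells in tumors include progenitor-like cells, which keep the capacity to renew, and more differentiated cells. Xcl1 encodes a chemokine that attracts cross-presenting dendritic cells, Il21 a cytokine that sustains CD8 T cells, Rgs1 a protein that damps chemokine receptor signalling, and Cflar the c-FLIP protein that blocks death receptor signalling.

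Promoter windows are shown because they lie under called regions: both windows under regions higher in LAG3_SP, and 4 of the 22 under regions lower in LAG3_SP. The sequences are RefSeq promoter windows on build GRCm38.p6, from 250 bases before to 50 after a start. Plek (chr11:17008669-17008968, minus strand), which encodes the protein kinase C substrate pleckstrin, and Rdh1 (chr10:127759513-127759812, plus strand), which encodes a retinol dehydrogenase, were higher. Nme3 (chr17:24896250-24896549, plus strand), a nucleoside diphosphate kinase gene, Afg3l1 (chr8:123477612-123477911, plus strand), a mitochondrial protease gene, Cwf19l1 (chr19:44135407-44135706, minus strand) and Cflar (chr1:58711241-58711540, plus strand) were lower. Capitals mark matches, on either strand, to CCGGAAG (ETS factors), GGGCGG (SP and KLF), CCAAT (NF-Y), TGTGGT (RUNX) and TGANTCA (AP-1). No 2 of these matches overlap in the windows shown.
Plek: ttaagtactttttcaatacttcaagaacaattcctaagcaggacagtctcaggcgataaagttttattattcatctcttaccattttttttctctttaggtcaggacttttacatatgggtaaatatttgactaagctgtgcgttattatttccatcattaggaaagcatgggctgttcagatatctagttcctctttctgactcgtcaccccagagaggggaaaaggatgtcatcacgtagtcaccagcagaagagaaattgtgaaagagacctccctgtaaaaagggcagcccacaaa
Rdh1: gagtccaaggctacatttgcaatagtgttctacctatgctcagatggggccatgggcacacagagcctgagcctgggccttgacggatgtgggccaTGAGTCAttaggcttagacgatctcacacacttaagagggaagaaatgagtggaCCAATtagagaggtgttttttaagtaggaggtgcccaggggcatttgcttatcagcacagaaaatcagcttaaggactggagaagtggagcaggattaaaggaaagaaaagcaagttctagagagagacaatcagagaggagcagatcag
Nme3: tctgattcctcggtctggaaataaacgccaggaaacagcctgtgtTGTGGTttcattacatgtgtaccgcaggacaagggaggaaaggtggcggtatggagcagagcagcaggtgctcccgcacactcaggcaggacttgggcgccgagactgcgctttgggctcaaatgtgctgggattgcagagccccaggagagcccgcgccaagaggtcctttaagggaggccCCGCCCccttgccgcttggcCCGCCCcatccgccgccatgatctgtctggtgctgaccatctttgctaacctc
Afg3l1: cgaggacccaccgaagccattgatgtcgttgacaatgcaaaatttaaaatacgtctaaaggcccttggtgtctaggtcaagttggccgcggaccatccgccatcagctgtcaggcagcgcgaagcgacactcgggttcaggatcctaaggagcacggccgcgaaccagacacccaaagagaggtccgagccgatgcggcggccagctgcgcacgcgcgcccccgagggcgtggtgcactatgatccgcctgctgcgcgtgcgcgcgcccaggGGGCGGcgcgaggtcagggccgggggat
Cwf19l1: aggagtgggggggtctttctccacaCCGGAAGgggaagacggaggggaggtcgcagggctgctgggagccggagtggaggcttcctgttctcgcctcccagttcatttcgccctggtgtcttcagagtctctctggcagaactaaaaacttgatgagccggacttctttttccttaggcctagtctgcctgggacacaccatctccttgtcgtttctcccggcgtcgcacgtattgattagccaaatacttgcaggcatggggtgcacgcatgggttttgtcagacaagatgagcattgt
Cflar: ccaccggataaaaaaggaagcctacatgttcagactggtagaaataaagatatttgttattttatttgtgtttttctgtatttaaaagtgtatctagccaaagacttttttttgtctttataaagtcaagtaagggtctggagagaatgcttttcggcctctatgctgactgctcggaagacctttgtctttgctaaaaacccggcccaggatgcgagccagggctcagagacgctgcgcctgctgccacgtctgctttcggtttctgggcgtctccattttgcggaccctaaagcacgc
The Plek and Cflar windows held none of the 5 letter patterns, and the Rdh1 window held 1 CCAAT and 1 TGANTCA. Among the 22 windows under lower regions, CCGGAAG occurred in 10 (45.5%), against 22.4% of the 9004 windows under any region and 11.7% of all 21044 windows. Of the 10 windows whose regions were also called lower by peak summits alone, 3 held it (30%). CCAAT occurred in 3 of the 22 (13.6%), against 40.2% of the windows under any region. GGGCGG occurred in 14 (63.6%, against 70.4%). TGTGGT occurred in 1 (4.55%, against 11.9%) and TGANTCA in 1 (4.55%, against 4.12%). The median GC content was 64.3% in the 22 windows and 56.7% in all windows, those under no region included. It was not taken for the windows under any region, so whether it is a trait of the lower regions cannot be told. A match is a description of letters and not a site.

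Peaks were ranked within each library and the strongest 19000 kept, and a region's rank value ran from 1 (strongest peak) to 0 (no kept peak). A rank value is an order within a library and not an amount of open chromatin. A value of 0 can also stand for a weaker peak outside those kept. The lists held 25056, 48268 and 19679 peaks in LAG3_SP and 37166, 37485 and 22994 in TDT_SP. The median width of the kept peaks was 369, 543 and 151 bp in LAG3_SP and 591, 594 and 405 bp in TDT_SP, and the groups overlapped. Peaks over 1 kb made up 1.18%, 5.65% and 0% of those kept in LAG3_SP and 9.26%, 9.98% and 3.02% in TDT_SP. The lists give no read totals, so the depth of a library is unknown. The local background at a summit was inferred from the fold ratio and -log10 p of up to 2000 peaks per library. Its lowest value was 0.661, 1.45 and 0.783 in LAG3_SP and 1.58, 1.92 and 2.06 in TDT_SP, and the groups did not overlap. The part of background or depth in the differences was not tested. Of 8 CD8 T cell marker genes, 7 to 8 had a kept peak in each LAG3_SP library and all 8 in each TDT_SP library. Of 5 B cell genes, 1 to 2 had a kept peak in LAG3_SP (summed rank values 0.281 to 0.708) and 0 to 2 in TDT_SP (0 to 0.458), with Cd79a and Ms4a1 at 0 in all 6 libraries. Of 6 myeloid genes, 1 to 2 had one in LAG3_SP (0.401 to 0.608) and 2 to 3 in TDT_SP (0.585 to 1.01), with Csf1r, Lyz2 and Adgre1 at 0 in all. Of 7 melanoma genes, 3 had one in each LAG3_SP library (2.12 to 2.49) and 2 to 3 in TDT_SP (1.72 to 2.12), with Tyr, Tyrp1, Dct and Sox10 at 0 in all. Of 4 CD4 T and Treg genes, 3 to 4 had one in LAG3_SP (1.03 to 1.94) and 3 in each TDT_SP library (0.924 to 1.18). The part of other cell types in the differences was not tested.

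**Figure D1:**
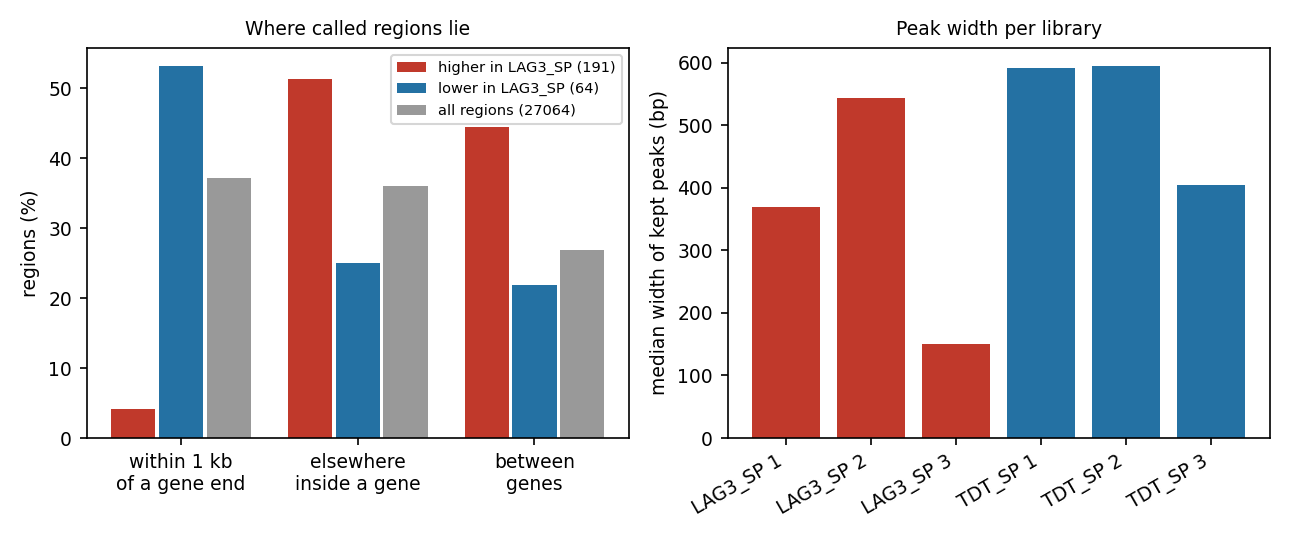
Left, percent of regions within 1 kb of a gene end, elsewhere inside a gene, or between genes, for regions higher in LAG3_SP (191), lower (64) and all 27064; right, median width in bp of the kept peaks of each library. The higher regions are at gene ends in 4.19% of cases and the lower ones in 53.1%, and LAG3_SP replicate 3 has the narrowest peaks, at 151 bp.

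Lag3 itself was examined first, since the sort and the Cre allele both rest on it. None of its 8 regions was called. The region with the smallest p lay 3.16 kb beyond the gene (chr6:124900944-124901444), at 0.802, 0.368 and 0 in LAG3_SP and 0 in each TDT_SP library (limma adjusted p = 0.215). Peaks inside the gene numbered 1, 6 and 7 in the LAG3_SP libraries and 4, 2 and 7 in the TDT_SP libraries. By strength the libraries numbered 3 stood apart: their strongest peaks there had rank values of 0.996 and 1, and at the region chr6:124909967-124910467 replicates 1 and 2 of both groups were at 0. With replicate 3 of both groups left out, 241 regions were higher and 46 lower, but only 84 of the 191 higher and 20 of the 64 lower calls described below were among them. Of the 43 called regions named below by the stated rules, 32 kept their call and 11 lost it. The limma adjusted p without these libraries is given beside 6 of those that lost it. The other 5 are those of Vsig10l, 1 of 3 at Rgs13, 2 of 3 at Fam3c and 1 of 2 at Chd3. The regions of Plek, Rdh1, Afg3l1 and Cwf19l1, added for their promoters, are not among the 43.

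More regions were called higher in LAG3_SP than lower. Of 27064 regions, 255 (0.942%) passed a limma test (adjusted p under 0.05 after Benjamini-Hochberg correction across the regions), 191 (0.706%) higher and 64 (0.236%) lower in LAG3_SP. At an unadjusted p under 0.05 there were 4731 (17.5%). Over all regions the difference leaned the other way, with a median of -0.02. All 3 LAG3_SP libraries lay above all 3 TDT_SP libraries in 1942 regions (7.18%) and below them in 3527 (13%). The calls rest on the spread of all 12 tumor libraries: with the 6 libraries alone no region was called by limma, 3845 had an unadjusted p under 0.05 and the smallest adjusted p was 0.0516. Single libraries moved the counts as well: without TDT_SP replicate 1, 2 or 3 the higher regions numbered 8, 3 and 15 and the lower 24, 15 and 28, without LAG3_SP replicate 1 they numbered 40 and 5, without LAG3_SP replicate 2 144 and 113, and without LAG3_SP replicate 3 677 and 162. Without DN replicate 1 or 2 or DP replicate 1 the higher regions numbered 47, 46 and 100 and the lower 22, 20 and 35, and without DP replicate 4 they numbered 264 and 100. Of the same 43 called regions, 5 were called with each library left out in turn, those of Cd47, Otud4, Taf5l and Zfp523 and the first of Cflar. In bulk cells, fewer cells with an open region and less opening in each cell cannot be told apart.

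**Figure D2:**
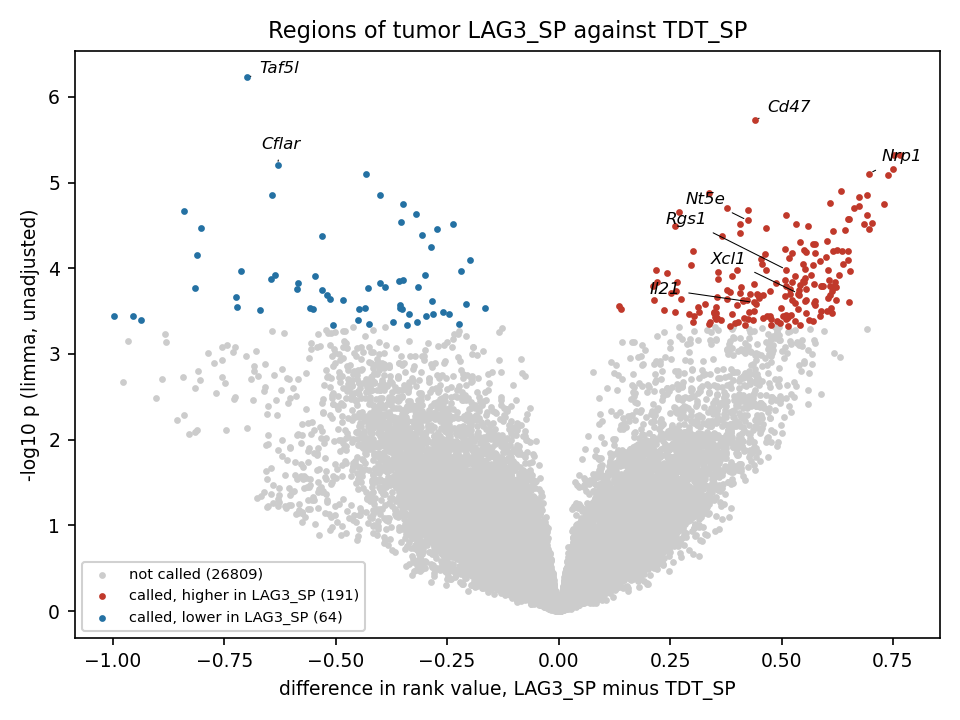
Each point is 1 of 27064 regions, with the difference in rank value (LAG3_SP minus TDT_SP) on the horizontal axis and the -log10 of the unadjusted limma p on the vertical axis; red points are the 191 called higher and blue the 64 called lower. Taf5l has the smallest p among the lower regions and Cd47 among the higher.

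The higher regions were distal. Only 8 of the 191 (4.19%) had their centre within 1 kb of an end of a protein-coding gene, against 37.1% of all regions, while 98 lay elsewhere inside a gene and 85 between genes. Their median distance to a gene end was 24.6 kb, against 4.34 kb for all regions. In DN cells 132 of the 191 (69.1%) had no kept peak in any library, against 16.8% of all regions. The DN libraries enter the spread behind the calls. Values of 0 in all of them add no spread, so the test favours such regions and this share is no separate evidence. The median of the group means was 0.605 in LAG3_SP, 0.469 in DP, 0.03 in TDT_SP and 0 in DN. The DP mean was nearer to LAG3_SP than to TDT_SP in 136 of the 191 (71.2%), in 51 of the 64 lower regions (79.7%) and in 54.6% of all regions. The DN mean was nearer to LAG3_SP in 2 of the 191, in 38 of the 64 and in 8600 of all 27064. The DP libraries enter the spread behind the calls too, so these counts are no separate evidence. The 64 lower regions were near genes, with 34 (53.1%) at a gene end and a median distance of 0.847 kb.

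Among the chemokine and cytokine genes, Xcl1 and Il21 each had 1 region that was higher in LAG3_SP. The Xcl1 region lay 18.23 kb beyond the gene (chr1:164953506-164954006), with rank values of 0.609, 0.685 and 0.504 in LAG3_SP and 0.184, 0 and 0 in TDT_SP. The groups did not overlap, and the difference was 0.54 (SE 0.105, limma adjusted p = 0.0378; 0.0597 without replicate 3 of both groups). TDT_SP replicate 2 had a weaker peak there, at place 19068 of its list, just outside those kept. The other 8 Xcl1 regions were not called, and that at the gene end (chr1:164935491-164935991) stood at 0.889, 0.801 and 0.14 in LAG3_SP and 0.553, 0.653 and 0.431 in TDT_SP. The Il21 region lay 27.21 kb beyond the gene (chr3:37259598-37260098), at 0.545, 0.418 and 0.405 in LAG3_SP and 0, 0 and 0.0536 in TDT_SP (difference 0.44, SE 0.0877, limma adjusted p = 0.0402; 0.0671 without replicate 3 of both groups). All 3 TDT_SP libraries had a peak there in their whole lists, at places 19134, 25591 and 17982. In all, 1 of 25 regions of chemokine genes and 1 of 52 of cytokine genes were higher and none lower, where 0.706% of all regions were higher, so that 1 call in a list of this size is no result about the list. Each call is lost when any 1 of 8 libraries is left out. Both genes are in the list for progenitor exhausted cells, where they were the 2 calls among 65 regions (3.08%, against 0.942% of all regions).

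The RGS genes, whose proteins shorten G protein signals, had 5 of 48 regions higher and none lower (10.4% called, against 0.942% of all regions), with a median difference of 0.04 against -0.02 over all regions. Of the 5, 3 lay nearest to Rgs13, 1 to Rgs1 and 1 to Rgs3. Rgs13 and Rgs1 are neighbours on chromosome 1, so these 4 regions share 1 locus and are not independent. The Rgs1 region (chr1:144215237-144215737) lay 29.18 kb beyond the gene, at 0.654, 0.401 and 0.478 in LAG3_SP and 0 in each TDT_SP library (difference 0.51, SE 0.0928, limma adjusted p = 0.0344; 0.0542 without replicate 3 of both groups). TDT_SP replicates 1 and 2 had weaker peaks there, at places 22652 and 21163. The Rgs13 region chr1:144206230-144206730 stood at 0.904, 0.875 and 0.655 against 0.259, 0.193 and 0.0547 (difference 0.64, limma adjusted p = 0.0225). The region over the end of Rgs1 itself (chr1:144248864-144249364) was strong in both groups, at 0.859, 0.76 and 0.875 against 0.842, 0.842 and 0.748, and was not called (limma adjusted p = 0.89).

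**Figure D3:**
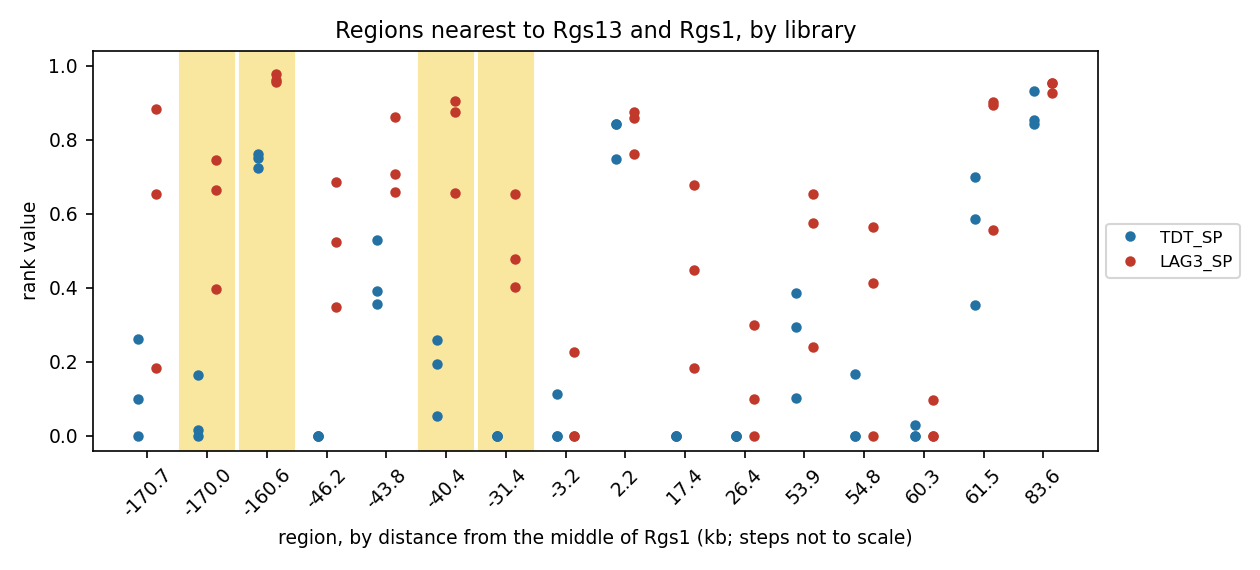
Rank value in each LAG3_SP (red) and TDT_SP (blue) library for the 16 regions nearest to Rgs13 or Rgs1, ordered by distance in kb from the middle of Rgs1; yellow marks the 4 called regions. At the called regions every LAG3_SP point lies above every TDT_SP point, and at 2.2 kb the groups overlap near the top.

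The higher region with the smallest p lay 69.87 kb from Cd47, the gene of the "do not eat me" signal (chr16:49982119-49982619), at 0.971, 0.992 and 0.97 in LAG3_SP and 0.593, 0.577 and 0.444 in TDT_SP. The difference was 0.44 (SE 0.0539, limma adjusted p = 0.0225). A region 54.1 kb from Nt5e, which encodes the adenosine-producing enzyme CD73, stood at 0.956, 0.941 and 0.762 against 0.438, 0.523 and 0.426 (difference 0.42, limma adjusted p = 0.0225). It was the only call among 100 regions of inhibitory receptor and exhaustion genes (1%, near the 0.942% of all regions). A region 30.38 kb from Nrp1, the neuropilin-1 receptor gene, stood at 0.933, 0.821 and 0.859 against 0.254, 0.19 and 0.0808 (difference 0.70, limma adjusted p = 0.0225). Cd247, the CD3 zeta chain gene, had the 1 call among 92 regions of T cell identity genes (1.09%, near the 0.942% of all regions). It stood at 0.472, 0.317 and 0.308 against 0 in each TDT_SP library (limma adjusted p = 0.0468, and 0.0793 without replicate 3 of both groups). Weaker peaks outside those kept lay there in TDT_SP replicates 1 and 2, at places 30804 and 25523 of their lists.

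Etv6, an ETS family repressor gene, had a region inside it at 0.792, 0.422 and 0.587 in LAG3_SP and 0 in each TDT_SP library. The difference was 0.60 (limma adjusted p = 0.0302, and 0.0637 without replicate 3 of both groups). This was the 1 call among 147 regions of RUNX, ETS and IKAROS genes (0.68%, against 0.942% of all regions). Tet2, which encodes a DNA demethylating enzyme, had a region at 0.764, 0.548 and 0.407 against 0 in each (difference 0.57, limma adjusted p = 0.0363). That was the 1 call among 47 regions of chromatin and DNA methylation genes (2.13%, against 0.942% of all regions). Weaker peaks outside those kept lay at both regions in TDT_SP replicates 1 and 2. Their places were 27266 and 25112 at Etv6 and 20974 and 25620 at Tet2. Pde4b, a cyclic AMP phosphodiesterase gene, had 2 higher regions, the first at 0.917, 0.836 and 0.836 against 0.0811, 0.154 and 0.405. Fam3c had 3, of which 1 lay inside the gene, and Kcnk10, a potassium channel gene, had 2. The other higher regions with the smallest p lay nearest to Otud4, Arl14ep, Zcchc4, Mefv, Galnt7 and Mmd, and 1 had no gene within 100 kb. At Arl14ep the values were 0.932, 0.809 and 0.754 against 0, 0 and 0.195, the widest difference of these, at 0.77. TDT_SP replicates 1 and 2 had weaker peaks there, at places 22621 and 20206 of their lists.

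**Figure D4:**
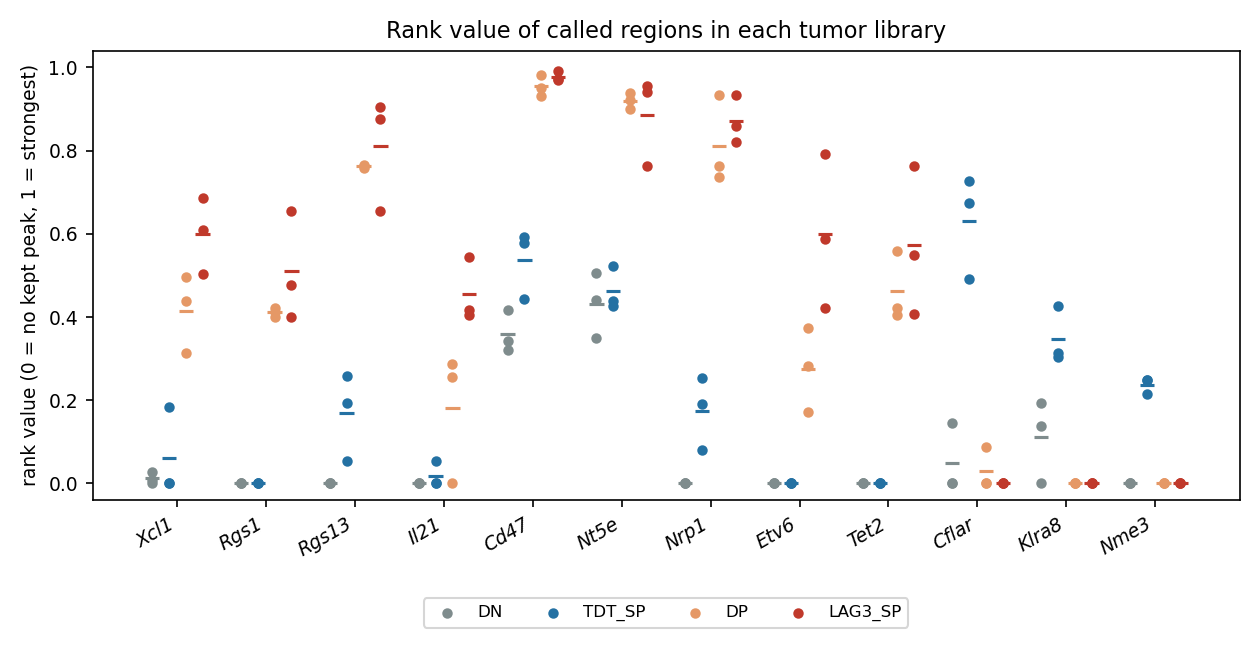
Rank value (0 for no kept peak, 1 for the strongest) of 12 called regions in each tumor library of DN, TDT_SP, DP and LAG3_SP, with bars at group means. At the 9 higher regions, from Xcl1 to Tet2, LAG3_SP lies above TDT_SP in every library; at Cflar, Klra8 and Nme3 all LAG3_SP libraries are at 0.

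The lower regions included 2 at Cflar, the 2 calls among 86 regions of death receptor and BCL2 family genes (2.33%, against 0.942% of all regions). Both calls lie at 1 gene, so they are no result about the list. The first (chr1:58711485-58711985) lay inside the gene, with its centre 0.42 kb from the gene end. It stood at 0 in each LAG3_SP library and at 0.727, 0.491 and 0.673 in TDT_SP (difference -0.63, SE 0.0865, limma adjusted p = 0.0225). LAG3_SP replicates 1 and 2 had weaker peaks over it, outside those kept, at places 22018 and 28602 of their lists. The second (chr1:58712969-58713469) stood at 0 against 0.727, 0.491 and 0.234 (limma adjusted p = 0.0394). Between them the region that holds the summits of every library but TDT_SP replicate 3 (chr1:58712402-58712902) was not called, at 0.742, 0.7 and 0.218 against 0.727, 0.491 and 0.673 (limma adjusted p = 0.831). The peak over that middle region was 1561, 2005 and 798 bp wide in TDT_SP and 713, 880 and 125 bp in LAG3_SP. The first called region lies in the flank of these wide TDT_SP peaks. Over the second, the wide peak of TDT_SP replicate 1 reached by 2 bp only and gave it the value 0.727, beside a separate weak peak of 162 bp at place 32425 of the list, and TDT_SP replicate 3 had a separate peak of 388 bp. Counted by summits alone, the first region's difference was -0.01 (limma adjusted p = 0.975).

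**Figure D5:**
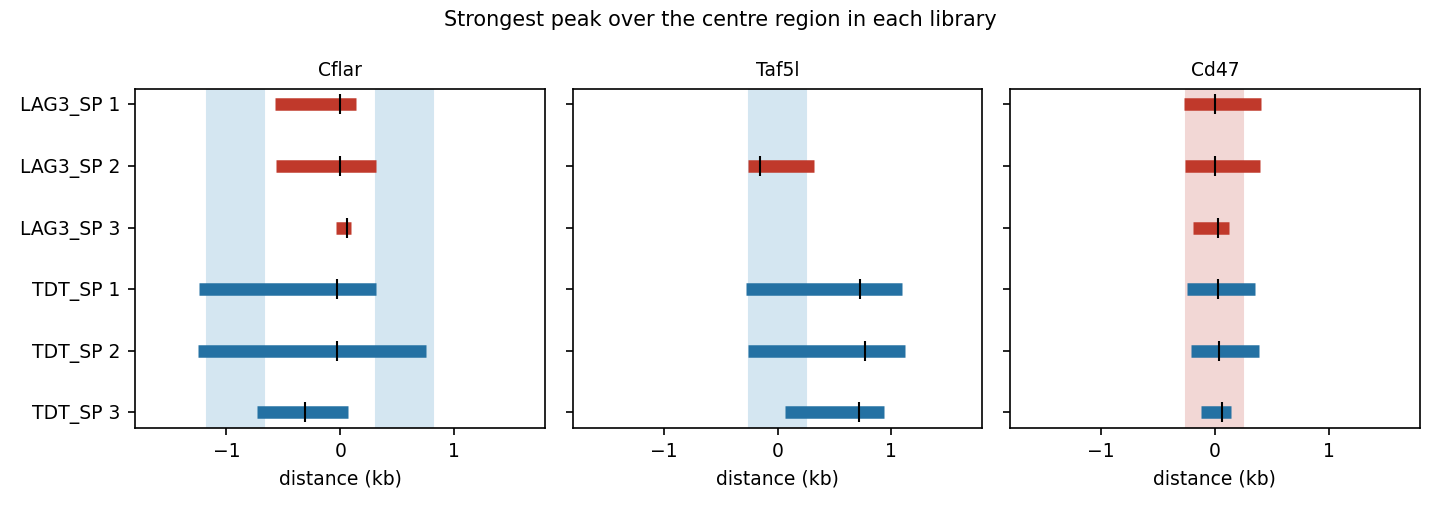
Extent of the strongest peak over the centre region in the whole list of each library, weaker peaks than those kept included (LAG3_SP replicate 2 at Taf5l), as distance in kb from that region's centre, at Cflar, Taf5l and Cd47; ticks are summits, blue shading marks regions called lower and red a region called higher. At Cflar and Taf5l the TDT_SP peaks reach into shaded regions that do not hold their summits, and at Cd47 the summits of all 6 libraries lie inside.

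Peak width moved with the lower calls more widely. In each TDT_SP library the strongest peak over 23 of the 64 lower regions (35.9%) had its summit outside the region, against 0 or 1 of the higher regions. With only summits counted, 32 regions were lower (0.121% of 26397) and 153 higher (0.58%), and 27 of the 64 and 145 of the 191 kept their call. The part of peak width in the other lower calls was not tested. The lower region with the smallest p, at Taf5l, a gene of a transcription coactivator complex, stood at 0 in LAG3_SP and at 0.639, 0.683 and 0.777 in TDT_SP (difference -0.70, limma adjusted p = 0.0161), under TDT_SP peaks of 1366, 1382 and 874 bp. LAG3_SP replicate 2 had a weaker peak there, at place 30074 of its list. Itgb7, an integrin gene of gut homing, Vsig10l and U2af1l4 were lower but not when summits were counted, and at Taf5l, Zfp523 and Fam189b the summit of the strongest peak lay outside the region in every TDT_SP library. Itgb7 and the higher Rgs1 region were the calls among 63 regions of tissue residency genes (3.17%, against 0.942% of all regions). The regions of Ms4a8a, Fam149b, LOC115489489 and Nme3, and 2 of Chd3, a chromatin remodeller gene, were lower by summits too.

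Lower regions that did keep their call by summits included the Nme3 promoter shown above, at 0 in each LAG3_SP library and 0.216, 0.248 and 0.249 in TDT_SP (difference -0.24, limma adjusted p = 0.0225; 0.0293 by summits). Afg3l1 stood at 0, 0.0546 and 0 against 0.562, 0.517 and 0.728 (difference -0.58, limma adjusted p = 0.0363). Klra8, a natural killer cell receptor gene, had the 1 call among 34 regions of NK and innate genes (2.94%, against 0.942% of all regions). Its region stood at 0 against 0.304, 0.314 and 0.427 (difference -0.35, limma adjusted p = 0.0363, and 0.0662 without replicate 3 of both groups). LAG3_SP replicate 2 had weaker peaks outside those kept, at place 27732 of its list at Klra8 and place 24401 at Nme3. Of 5 NK marker genes, Klra8 among them, 2 to 4 had a kept peak in the LAG3_SP libraries (summed rank values 0.974 to 2.02) and 4 in each TDT_SP library (1.56 to 2.38), with Ncr1 at 0 in all 6. The part of NK cells in this call was not tested. At the higher promoters, Plek stood at 0.868, 0.801 and 0.772 against 0.43, 0.396 and 0.45 (limma adjusted p = 0.0358), and Rdh1 at 0.44, 0.474 and 0.651 against 0, 0 and 0.0398 (limma adjusted p = 0.0284).

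No region was called among the genes of naive and memory cells, effector function, chemokine receptors, TCR signal, cytokine receptors, CD4 and Treg cells, B cells, myeloid cells, melanoma, stroma or housekeeping. The nearest to the threshold was a region by Id2, a transcription regulator of effector cells, at 0.931, 0.932 and 0.783 in LAG3_SP and 0.602, 0.559 and 0.577 in TDT_SP (limma adjusted p = 0.0521). A region in Nfatc1 stood at 0, 0 and 0.00563 against 0.371, 0.366 and 0.584 (limma adjusted p = 0.0635). The strongest TDT_SP peaks over it were 1163, 1198 and 907 bp wide with summits outside it, and by summits alone the difference was 0.00188. LAG3_SP replicates 1 and 2 had weaker peaks there, at places 23931 and 20036 of their lists. A region in Ikzf2 stood at 0.97, 0.933 and 0.845 against 0.747, 0.694 and 0.769 (limma adjusted p = 0.0666). The chemokine receptor gene Cxcr4 had a region at 0.39, 0.109 and 0 against 0.591, 0.497 and 0.756 (limma adjusted p = 0.091). In 6 further lists the smallest limma adjusted p was 0.0975 at Stat3, 0.192 at Ebf1, 0.0819 at Cebpb, 0.121 at Mitf, 0.151 at Vwf and 0.149 at Actb.

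Single values per library set the groups side by side as wholes. The share of kept peaks with a summit within 1 kb of a gene end was 42.5% ± 3.88 (SD, n = 3) in LAG3_SP and 44.1% ± 0.809 in TDT_SP (two-sided exact permutation test, p = 0.6; the smallest p of 3 against 3 is 0.1). Among the strongest 4000 peaks the difference was -11.5 percentage points (exact p = 0.1). Overlap of regions, as a Jaccard index, averaged 0.75 within groups and 0.694 between them (exact permutation p = 0.1). The TDT_SP pairs averaged 0.796 and the LAG3_SP pairs 0.704, and the lowest LAG3_SP pair, at 0.648, lay below every pair between groups.

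In lymph nodes, where each sort had 1 library with a long list, most of the 191 higher regions had no peak among the strongest 14000. Both the LAG3_SP and the TDT_SP library had none in 156 of them in draining nodes (81.7%, against 41.2% of all regions) and in 104 in non-draining nodes (54.5%, against 39.9%). In non-draining nodes LAG3_SP ranked above TDT_SP in 78 and below in 9, against 7250 and 9006 of all regions, and in draining nodes the counts were 21 and 14, against 8271 and 7638. With 1 library of each sort these are values without a test, and the non-draining LAG3_SP list was short, with 14244 peaks.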

How the data were processed

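Bulk Omni-ATAC libraries of sorted CD8 T cells were deposited as MACS2 peak lists on GRCm38 (mm10) after BWA alignment, per the submitters' processing notes; the sources used here give no version or setting. Each deposited peak carries the authors' score, fold ratio over local background, and -log10 p and -log10 q. No read counts were used.

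Ranking by -log10 p covered chromosomes 1 to 19 and X. The strongest 19000 of each of 12 tumor libraries with at least 10000 peaks were kept (14000 for lymph nodes), which left out 2 tumor libraries. Regions of 501 bp around summits needed a peak (1 bp of overlap) in 2 or more libraries. Rank values were fitted with limma 3.58.1 (lmFit, eBayes with trend) in R 4.3.3, the 4 tumor groups in 1 fit, Benjamini-Hochberg adjusted over 27064 regions; the fit was tested on simulated data. Each region belongs to the nearest of 21627 RefSeq protein-coding genes (GRCm38.p6) within 100 kb. Place and distance use both gene ends, because the gene table gives no strand. The RefSeq promoter table held 21044 windows for 17273 genes and was used only for sequences. Nearness does not show regulation.

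The members, gene lists and tests were chosen with earlier results of these data known. Named were Lag3, the 4 marker genes, the 10 called regions with the smallest p in each direction, genes with at least 2 called regions, and per list the called regions or the best gene; some of these are not reported here. Plek, Rdh1, Afg3l1 and Cwf19l1 were added for their promoters after their values were seen. Alternatives varied the peaks kept, overlap, ranking, fit and libraries. Python 3.11.15 was used for the rest.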

Additional observations from a re-analysis of the deposited data

Results flagged for a closer look

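The tumor libraries with short lists, which entered no comparison, had several peaks inside Lag3. There were 7 in DN replicate 3, of 4603 peaks in all, and 10 in DP replicate 3, of 5188. Their strongest Lag3 peaks held places 25 and 15 of their lists. The other tumor DN and DP libraries had 1 to 3 peaks inside Lag3. Of the short lymph node lists, those of TDT_SP replicate 2 had 6 in draining and 4 in non-draining nodes, the strongest at places 4 and 9. Those of DN replicate 2 had 1 each, at places 116 and 6367. In the compared LAG3_SP and TDT_SP replicates 3 the strongest Lag3 peaks held places 83 and 6. The signal thus lies both inside and outside the main comparison, and its origin was not tested.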

How the results depend on the processing

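The number of calls depended on the processing, and the cause was not tested except where the setting itself names it. Higher and lower regions numbered 78 and 8 with the strongest 10000 peaks, 6 and 0 with the strongest 4000, and 0 and 0 with all peaks (2285 at an unadjusted limma p under 0.05), with peaks ranked by fold (3413) and with the 6 libraries alone (3845). They numbered 0 and 2 where a peak had to cover at least 250.5 bp of the region, and 429 and 316 without the limma trend. Lower regions numbered 32 by summits, 32 with peaks trimmed to 250 bp around the summit (an alternative chosen after seeing the data), 105 by presence or absence and 109 where 3 libraries had to hold a peak. Leaving out each of the 12 libraries in turn gave 3 to 677 higher and 5 to 162 lower. The replicate block gave 1 higher and 5 lower. Same-numbered libraries deviated together with correlations of 0.0656, 0.0611 and 0.187. Pairs of a replicate 3 with a replicate 1 or 2 stood at -0.107, -0.141, -0.129 and -0.0951. Replicates 1 and 2 across numbers stood at 0.0654 and 0.106. The numbers were not taken to pair the samples, and a shared origin of the replicates numbered 3 was not tested. Reversed values were 0.0396 for Vsig10l and 0.0131 for Itgb7, both by summits and with trimmed peaks, and -0.0979 for a Rgs13 region under the same cover rule. The gene end share difference became 2.75 points with all peaks and ranged from -3.59 to 0.254 over the left-out libraries, and the Jaccard difference became -0.00497 with all peaks. The weakest kept peak had a -log10 p of 5.24 in LAG3_SP replicate 3 and 21.5 in LAG3_SP replicate 2; the read depth behind this is unknown.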
